A study of Picea abies with 36 samples.

Results

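These are 95 gene models of Norway spruce (Picea abies) whose messenger RNA was low in hypocotyls given auxin and stood nearer to the mock level when a cytokinin was given as well. The hypocotyl is the stem below the cotyledons. Seedlings of about 2 weeks received lanolin on it a single time, and total RNA was sequenced after 5, 10 and 15 days. The groups were BAP+IAA (135 mM of the cytokinin BAP, 6-benzylaminopurine, with 50 mM of the auxin IAA, indole-3-acetic acid), IAA alone (50 mM), BAP alone (135 mM) and Mock, the lanolin control. Each of the 4 treatments had 3 libraries on each of the 3 days, 36 in all. Whether the libraries within a group stem from different plants is not stated, so every p-value reflects how far these libraries differ among themselves, possibly for technical reasons alone. The table's columns carry a collection number from 1 to 3, read here in the order of the days, and every statement on a particular day rests on that reading. Libraries held 12531117 to 22280720 reads in gene models.

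Auxin and cytokinin are the classical pair of plant growth hormones. Auxin is bound by TIR1/AFB receptors that send Aux/IAA repressor proteins to degradation, which frees auxin response factors to change transcription, and it promotes vascular and root development. Cytokinin is perceived by histidine kinase receptors that pass phosphate groups to response regulators in the nucleus, and it promotes cell division and shoot development. The pathways meet at many points and often oppose each other, which is the background to asking what a cytokinin does to genes that auxin lowers. No name or function is paired with the identifiers in the files used here, so the gene models are described by their values alone.

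The members were chosen on the measured values. CPM, the share of a library's reads on the usual counts-per-million scale, was averaged over the 9 libraries of each treatment, and changes over Mock were taken as log2 of the ratio of means after adding 0.5 CPM. A gene model had to average at least 1 CPM in some treatment, to change by -1.5 or less with IAA, by less than 1 in either direction with BAP, and by more than -1 with BAP+IAA. Of 70736 gene models, 34471 reached 1 CPM, 1019 of these met the IAA limit, 498 of those also met the BAP limit, and 95 met all limits. The other 403 of the 498 stayed at -1 or below with BAP+IAA and serve as the comparison below. Because the rule used the treatment means, those means are given as a description. Where calls of a model fit, or separations between libraries, are given for these means or for single days, they too are description. The rule did not use differences between days, and only these are read as tests. At the IAA limit the last member stood at a log2 change of -1.502 and the next gene model outside at -1.495. At the BAP+IAA limit the values were -0.999 inside and -1.014 outside, and at the BAP limits 0.936 and -0.974 inside against 1.025 and -1.018 outside.

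With both hormones most members came part of the way back to Mock, so the name restored overstates the data. The median log2 change over Mock was -0.59 with BAP+IAA (lowest -1, highest 3.27), -1.68 with IAA (-2.92 to -1.5) and -0.16 with BAP (-0.97 to 0.94). The log2 difference between BAP+IAA and IAA had a median of 1.15 and ran from 0.53 to 5.14. As a share of the log2 fall with IAA, the recovery had a median of 65.5% and was over 50% at 78 members. Above Mock in the combination stood 11 members, 29 lay between -0.5 and 0, and 55 lay between -1 and -0.5. Many sat near a limit, with 25 members between -1.6 and -1.5 for IAA and 16 between -1 and -0.9 for BAP+IAA.

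**Figure D1:**
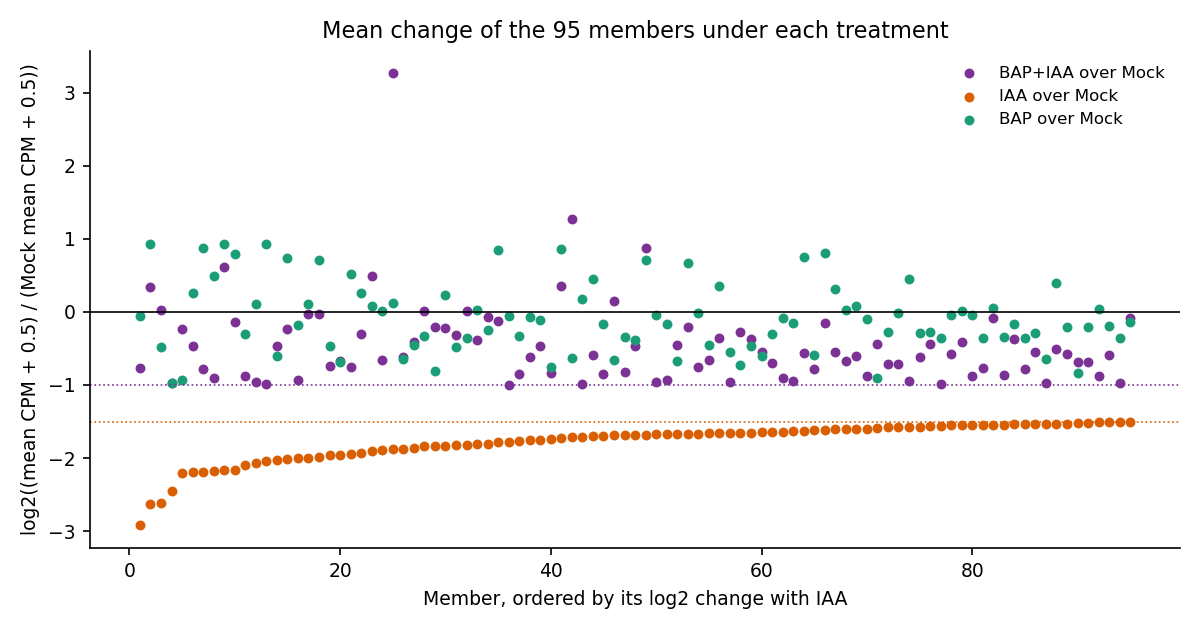
Log2 change of mean CPM over Mock (0.5 CPM added; mean of 9 libraries per treatment) for each of the 95 members, ordered by the change with IAA on the x axis; dotted lines mark the limits of -1.5 for IAA and -1 for BAP+IAA. The BAP+IAA points lie between the IAA points and 0 for 84 members and above 0 for 11, and BAP points lie on both sides of 0.

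The levels were moderate. Mean levels over the members had a median of 8.8 CPM with BAP+IAA (0.502 to 418), 3.16 CPM with IAA (0.0535 to 136), 10.4 CPM with BAP (1.12 to 568) and 11.4 CPM in Mock (1.14 to 485). The median Mock level of all gene models that reached 1 CPM was 6.95 CPM. CPM is not corrected for transcript length, so it compares treatments and not genes. In Mock, 7 members were at 100 CPM or more, 66 between 5 and 100 CPM and 22 below 5 CPM. The 7 abundant members had mean levels of 73.6 to 418 CPM with BAP+IAA, 38.3 to 136 CPM with IAA, 103 to 568 CPM with BAP and 131 to 485 CPM in Mock, and log2 changes of -0.98 to -0.21 with BAP+IAA. At least 1 library without a read was seen at 7 members, all at 4.31 CPM or less in Mock. A depth of 3 reads in a library corresponded to 0.135 to 0.239 CPM, for counting error only. In a bulk sample, fewer cells of a type and less RNA per cell cannot be told apart.

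Across libraries the pattern was regular. Each member's level was set against its own mean Mock level, and the median over the 95 members was taken in every library. These library medians lay at -1.04 to -0.38 (log2) in the 9 BAP+IAA libraries, at -2.04 to -1.44 in the 9 IAA libraries, at -0.55 to 0.07 in the 9 BAP libraries and at -0.23 to 0.09 in the 9 Mock libraries. No BAP+IAA library overlapped the IAA libraries or the Mock libraries in this median, while BAP and Mock libraries overlapped. The members were chosen on means of these same libraries, so the rule largely fixed this order of treatments, and it is description only. Within BAP+IAA, the 5-day libraries (-1.04 to -0.91) were below those of 10 days (-0.62 to -0.38) and 15 days (-0.64 to -0.48). Together the members summed to 1823 to 3258 CPM with BAP+IAA, 725 to 1338 CPM with IAA, 2920 to 4580 CPM with BAP and 3036 to 3920 CPM in Mock.

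**Figure D2:**
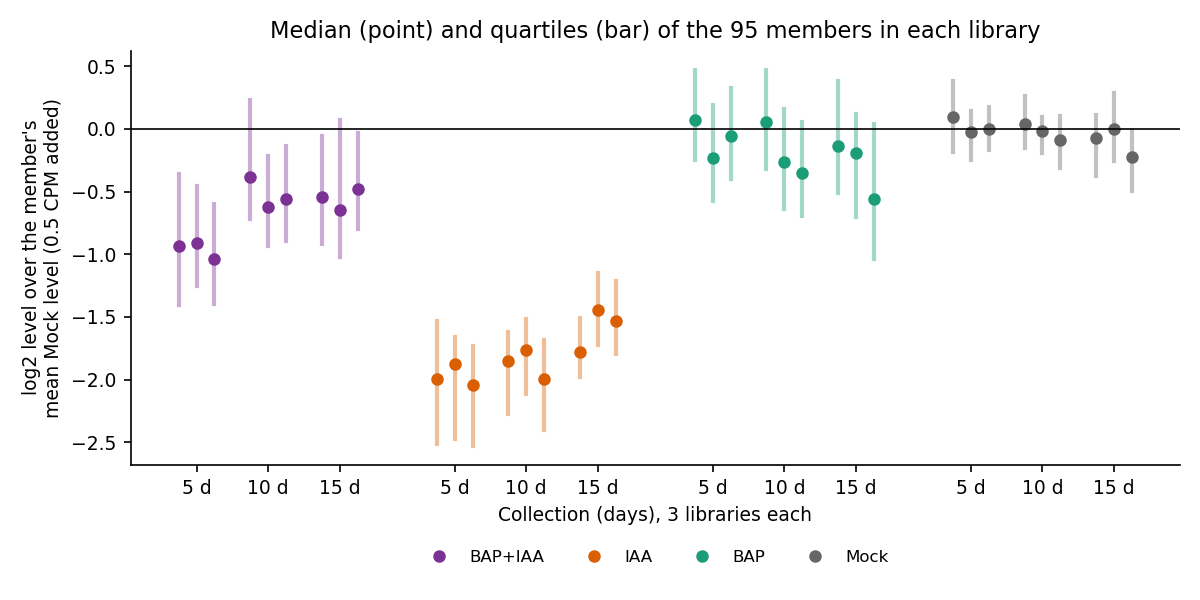
Median (point) and quartiles (bar) over the 95 members of the log2 level relative to the member's mean Mock level (0.5 CPM added), for each of 36 libraries by treatment and day. IAA libraries lie at -2.04 to -1.44, BAP+IAA libraries at -1.04 to -0.38, and the lowest BAP+IAA medians are those of 5 days.

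Read counts were also fitted with edgeR's quasi-likelihood model over all 38239 gene models with enough reads, and all 95 members were among these. A gene model is called where the Benjamini-Hochberg adjusted p is below 0.05. The members' fitted log2 changes over Mock, in the mean of the days, had a median of -0.78 with BAP+IAA (lowest -2.41). With IAA the median was -1.98 (lowest -5.35) and with BAP -0.28 (lowest -4.45). The fit averages the days' log2 changes, while the rule averages CPM and adds 0.5, so fitted values can pass the rule's limits. In the mean of the 3 days, IAA was called below Mock at 95 of 95 members, where 28.4% of all tested gene models were called lower. BAP+IAA was called above IAA at 90 of 95 (19.2% of all tested). Against Mock, BAP+IAA was called lower at 68 members (30.5% of all tested) and higher at 2 (32% of all tested), and 25 were not called. The log2 change with both hormones was called above the sum of the single changes at 87 members (14.1% of all tested). The rule fixed most of these counts, and nothing is read from them beyond the description.

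The rule kept the mean change with BAP alone small. In the mean of the 3 days, BAP was called below Mock at 39 members (25.3% of all tested) and above it at 11 (24.3% of all tested), and nothing is read from these counts. On single days the BAP change of a member, leaving out MA_7997902g0010, ran from -1.84 to 1.45 at 5 days, from -1.59 to 1.44 at 10 days and from -1.22 to 1.61 at 15 days. The member left out had no read in 17 libraries and stood at -2.17, 1.58 and -3.09 on these days. The single-day changes can exceed the limit because a mean of CPM over days can hide opposite changes or be carried by the day with the highest level.

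Few members met the limits on every day. All 3 limits held at 36 members at 5 days, at 60 at 10 days and at 24 at 15 days. They held on all 3 days at 8 members, on 2 days at 28, on 1 day at 40 and on no single day at 19. The IAA limit was met at 80, 79 and 37 members at 5, 10 and 15 days, and the BAP+IAA limit at 53, 82 and 78. The 5-day collection thus fell short mainly on the side of the combination and the 15-day collection on the side of IAA. Every IAA library was below every same-day Mock library at 92 members at 5 days, 91 at 10 days and 88 at 15 days (27.8%, 26.7% and 22.4% of all tested). Every BAP+IAA library was above every same-day IAA library at 80, 81 and 71 members (17.4%, 22.9% and 22.4% of all tested). With the days pooled, all 9 IAA libraries were below all 9 Mock libraries at 78 members (9.26% of all tested). All 9 BAP+IAA libraries were above all 9 IAA libraries at 25 members (2.25% of all tested). Pooling the days is stricter than asking for a same-day separation on each of them. Every BAP+IAA library was below every same-day Mock library at 67 members at 5 days, 39 at 10 days and 39 at 15 days (25.3%, 26.2% and 24.1% of all tested). With the days pooled, every BAP+IAA library was below every Mock library at 9 members (11.2% of all tested). By the fit of single days, IAA was called below Mock at 93, 91 and 87 members (23.6%, 18.1% and 15% of all tested), and BAP+IAA above IAA at 60, 80 and 60 (5.79%, 13.9% and 13.4% of all tested).

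The single members show the range of the pattern. In the fit for the mean of the days another member was lowest with IAA, at -5.35. By the rule's measure, with 0.5 CPM added, MA_10435693g0020 had the lowest log2 change with IAA (-2.92). It was at 1.59 to 8.35 CPM with BAP+IAA (median 4.33), at 0.336 to 0.763 CPM with IAA (median 0.666), at 4.97 to 11.5 CPM with BAP (median 7.51) and at 2.99 to 11 CPM in Mock (median 7.94; 9 libraries each). No IAA library overlapped any other treatment, and 1 Mock library, replicate 3 at 15 days, was low at 2.99 CPM against 7.5 and 10.7 CPM in the others of that day. Its combination level was 2.52, 2.7 and 1.59 CPM at 5 days, 4.06, 6.79 and 4.91 CPM at 10 days and 5.12, 4.33 and 8.35 CPM at 15 days, so the earliest collection was the lowest. The fitted log2 change over Mock in the mean of the days was -0.96 ± 0.18 with BAP+IAA, -3.64 ± 0.22 with IAA and -0.15 ± 0.17 with BAP (SE).

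MA_10020g0010 had the highest Mock level of the members. It was at 311 to 575 CPM with BAP+IAA (median 386), at 73.5 to 197 CPM with IAA (median 140), at 316 to 838 CPM with BAP (median 565) and at 415 to 583 CPM in Mock (median 479; 9 libraries each). BAP+IAA libraries overlapped Mock and lay above every IAA library. The fitted log2 change was -0.24 ± 0.12 with BAP+IAA, -1.83 ± 0.13 with IAA and 0.11 ± 0.12 with BAP (SE).

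By the rule's measure MA_895626g0010 had the largest rise of BAP+IAA over IAA among members at 5 CPM or more in Mock. The margin was small (log2 difference 2.981, against 2.974 for MA_7247276g0010). In the fit for the mean of the days, MA_895626g0010 was not the largest. MA_18091g0010, for example, had a larger rise (2.76 ± 0.26 against 2.66 ± 0.14, SE), without being the top of the fit. At MA_7247276g0010 the fitted changes over Mock were 0.16 with BAP+IAA and -4.21 with IAA at 5 days. At 15 days they were 0.01 and -2.59. MA_895626g0010 passed beyond the Mock level. With BAP+IAA it was at 59.7, 42.2 and 40.9 CPM at 5 days, 174, 411 and 267 CPM at 10 days and 130, 93.9 and 150 CPM at 15 days. With IAA it stayed at 11.2 to 26.5 CPM and with BAP at 30.7 to 60.2 CPM, against 44.1 to 73.5 CPM in Mock (9 libraries each). The combination was thus below Mock at 5 days (fitted log2 change -0.60 ± 0.23, SE) and above it at 10 days (2.12 ± 0.23) and 15 days (1.26 ± 0.23), while each hormone alone stood below same-day Mock in every library.

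MA_7997902g0010 had the highest BAP+IAA change of all members, 3.27 on the log2 scale, and is named after its values were seen because it does not follow the others. It had no read in 17 of 36 libraries. Its Mock mean of 2.78 CPM came from 3 libraries with 84, 147 and 185 reads, and the other 6 Mock libraries had none. With BAP+IAA it had 1 to 3 reads per library at 5 days but 664, 978 and 998 reads at 10 days and 367, 462 and 750 reads at 15 days. With BAP alone, reads were seen in replicates 1 and 3 at 10 days (175 and 199), apart from 1 read at 5 days. With IAA alone, 56 of its 61 reads lay in 1 library. A fall with IAA relative to Mock is therefore carried by the 3 Mock libraries that had reads.

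**Figure D3:**
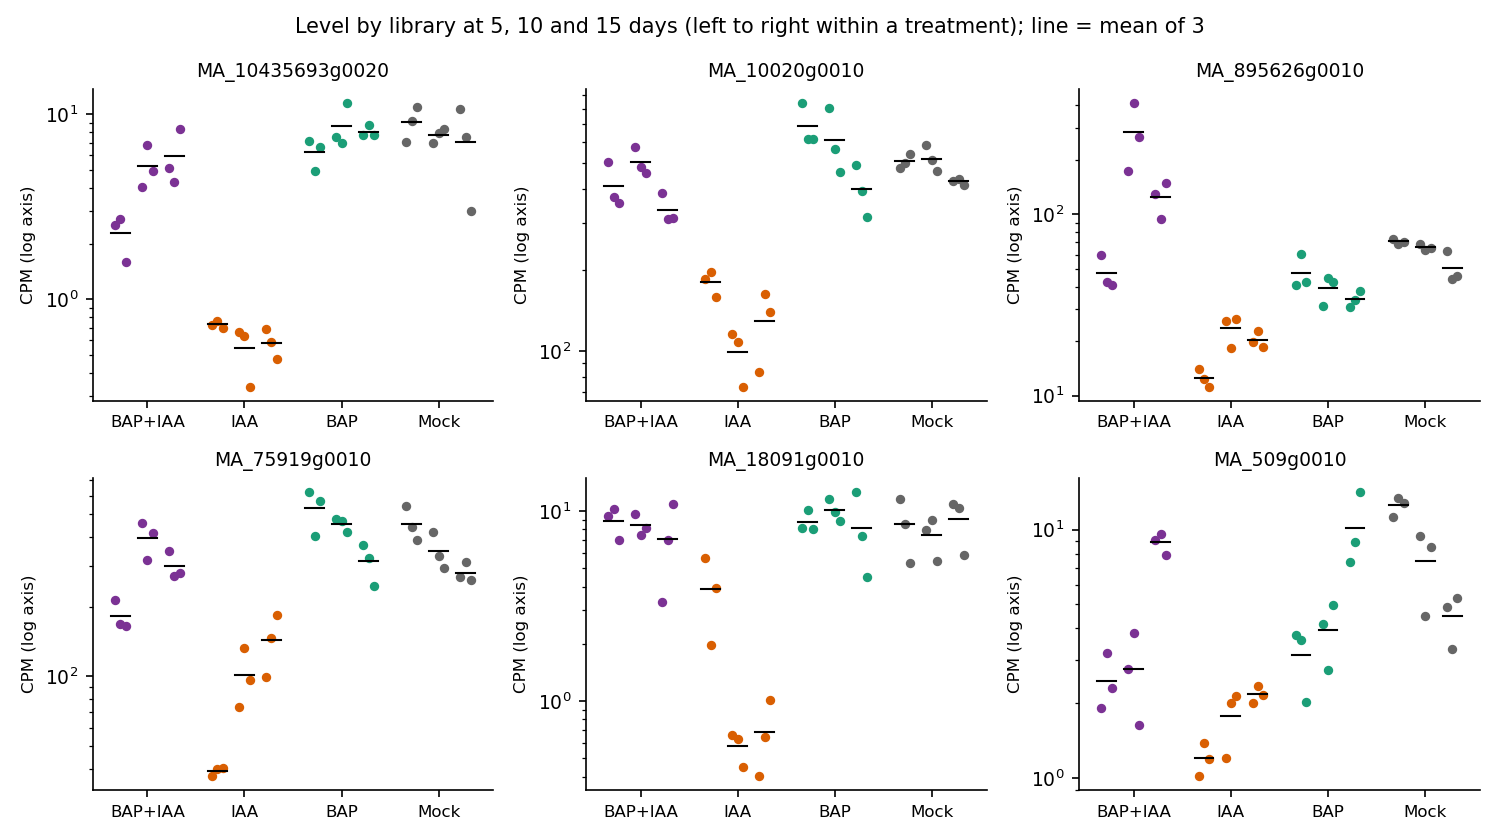
CPM on log axes in each library of 6 named members, by treatment, with 5, 10 and 15 days from left to right within a treatment and a line at the mean of 3 libraries. MA_10435693g0020 and MA_10020g0010 are low in all IAA libraries, MA_895626g0010 exceeds Mock with BAP+IAA at 10 and 15 days, MA_75919g0010 climbs with days of IAA, MA_18091g0010 is low with IAA from 10 days on, and MA_509g0010 declines in Mock.

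Time differences within the auxin response were not used by the rule. The IAA effect, the log2 difference between IAA and same-day Mock, was called different at 15 days and 5 days at 29 members (16.1% of all tested gene models). It was higher, that is less negative, at 28 (9.04% of all tested) and lower at 1 (7.06% of all tested), with 66 not called. The 28 differences ran from 0.73 to 4.78 with a median of 1.57, and the median of all 95 was 0.81, where all tested gene models had a median of 0.03. By day, the median IAA change of mean CPM over Mock was -2.03 at 5 days, -1.80 at 10 days and -1.40 at 15 days. Their IAA levels had medians of 2.86, 2.73 and 4.09 CPM on these days, and their Mock levels 13, 12.4 and 11.5 CPM. From 5 to 15 days the level with IAA moved by a median of 0.51 (log2) and was higher at 70 of 95 members, and the Mock level moved by -0.06. Without replicate 3 of Mock at 15 days, which had the lowest library median among the Mock libraries, the calls were 17 higher and 2 lower. The rule fixes the mean over days, so a member with a weak effect at 15 days had to have a stronger one on another day, but which day was the weaker was not fixed.

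Of the 403 auxin-lowered gene models that stayed low in the combination, 146 had a higher IAA effect at 15 than at 5 days (36.2%) and 0 a lower one, and their median difference was 0.91. Whether this differs from the members was not tested.

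MA_75919g0010 had the smallest adjusted p among members with a higher effect at 15 days. It was at 37.3, 40 and 40.5 CPM with IAA at 5 days, 74.2, 133 and 96.8 CPM at 10 days and 99.6, 146 and 184 CPM at 15 days. Mock was at 541, 441 and 385 CPM at 5 days, 419, 330 and 294 CPM at 10 days and 269, 311 and 261 CPM at 15 days. IAA libraries stayed below Mock on each day, and the gap between the groups was smallest at 15 days. The Mock level itself was not called different between 15 and 5 days (log2 difference -0.71 ± 0.21, SE; edgeR adjusted p = 0.088). The effect was -3.51 ± 0.23 (SE) at 5 days, -1.71 ± 0.22 at 10 days and -0.94 ± 0.21 at 15 days, and the difference between 15 and 5 days was 2.57 ± 0.30 (edgeR adjusted p = 1.8e-06). Its BAP+IAA level was 182 ± 27.1 CPM on day 5, 396 ± 72.2 CPM on day 10 and 299 ± 42.5 CPM on day 15 (SD, n = 3), so it was back in the range of Mock from 10 days on.

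MA_18091g0010 went the other way and was the only member called lower in this test. With IAA it was at 5.67, 1.97 and 3.93 CPM at 5 days, 0.666, 0.631 and 0.448 CPM at 10 days and 0.403, 0.645 and 1.01 CPM at 15 days. Mock was at 11.6, 8.56 and 5.33 CPM, 7.9, 8.93 and 5.48 CPM, and 10.9, 10.4 and 5.83 CPM on the same days. The groups overlapped at 5 days and were far apart later. The difference of the effects was -2.57 ± 0.62 (SE; edgeR adjusted p = 0.0042). With BAP+IAA it kept a level of 8.87 ± 1.66, 8.41 ± 1.13 and 7.09 ± 3.81 CPM on the 3 days (SD, n = 3), overlapping Mock on each.

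Between 10 and 5 days fewer members differed. The IAA effect was called higher at 10 (6.53% of all tested) and lower at 3 (4.19% of all tested). With total counts in place of TMM scaling these were 6 and 4. MA_75919g0010 led the higher calls with 1.81 ± 0.30 (SE; edgeR adjusted p = 0.00021). MA_28597g0010 led the lower ones with -1.28 ± 0.32 (SE; edgeR adjusted p = 0.009). It had 4.73, 5.21 and 2.53 CPM with IAA at 5 days, 2.53, 1.84 and 1.96 CPM at 10 days and 3.28, 2.93 and 3.44 CPM at 15 days, against Mock levels of 10.2 ± 1.74, 12.9 ± 2.15 and 9.63 ± 0.467 CPM (SD, n = 3). The count of 13 calls (13.7%, against 10.7% of all tested, so near the background) rests on few libraries. It was 5 without replicate 3 of IAA at 5 days, 8 without replicate 2 of that group and 7 without replicate 1 or replicate 3 of the 5-day Mock group. Leaving out replicate 3 of the 10-day Mock group gave 6.

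**Figure D4:**
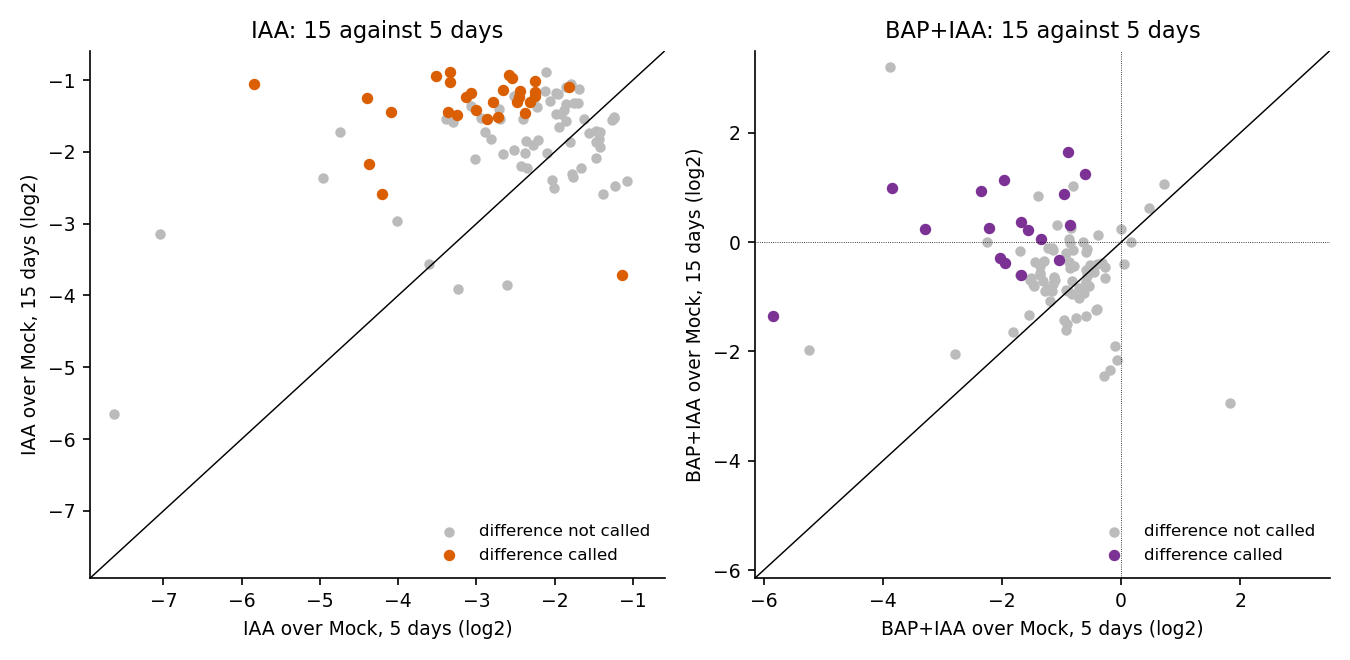
Fitted log2 change over same-day Mock at 15 days (y) against 5 days (x) for the 95 members, with IAA on the left and BAP+IAA on the right; coloured points were called different between the days and the line marks equal change. With IAA 28 called points lie above the line and 1 below it, and with BAP+IAA all 17 called points lie above it.

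At part of the members the combination stood nearer to Mock, or further above it, at the later collection. The BAP+IAA effect was called higher at 15 than at 5 days at 17 members (2.75% of all tested) and lower at 0 (3% of all tested), with 78 not called (edgeR). At an unadjusted p below 0.05 the counts were 37 and 3, and DESeq2 called 23 and 1. The 17 differences ran from 0.70 to 4.85 with a median of 1.86. The median over all members was 0.50, where all tested gene models had 0.01. By day, the median change over Mock was -0.85 at 5 days, -0.47 at 10 days and -0.42 at 15 days. BAP+IAA was called below Mock at 61, 29 and 36 members on the 3 days (21.9%, 21.3% and 21.1% of all tested) and above it at 1, 5 and 6 (21.3%, 22.8% and 22.9% of all tested). Of the 403 gene models that stayed low, 25 had a higher BAP+IAA effect at 15 days and 10 a lower one, with a median of 0.36. The IAA and BAP+IAA effects of a day are taken against the same Mock libraries. Among the 17 are MA_509g0010, MA_10208403g0010, MA_127644g0010 and MA_90243g0010, whose Mock level was itself called lower at 15 than at 5 days (edgeR). The IAA effect of these members was called higher at 15 days too. From 5 to 15 days the level with BAP+IAA moved by a median of 0.39 (log2) and was higher at 69 of 95 members, and the Mock level moved by -0.06.

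MA_509g0010 had the smallest adjusted p in this test. Its level was highest at 15 days with BAP+IAA and lowest at 15 days in Mock. It was at 1.91, 3.2 and 2.31 CPM with BAP+IAA at 5 days, 2.76, 3.84 and 1.64 CPM at 10 days and 9.11, 9.59 and 7.93 CPM at 15 days. In Mock it was at 11.2, 13.4 and 12.8 CPM at 5 days, 9.38, 4.5 and 8.5 CPM at 10 days and 4.89, 3.31 and 5.31 CPM at 15 days. Combination libraries were below Mock at 5 and 10 days and above it at 15 days, without overlap. The effect was higher at 15 than at 5 days by 3.30 ± 0.42 (SE; edgeR adjusted p = 7.4e-06). Under BAP the mean level was 3.13 ± 0.955, 3.96 ± 1.15 and 10.1 ± 3.53 CPM on the 3 days (SD, n = 3), and the BAP effect differed by 3.17 ± 0.42 (SE; edgeR adjusted p = 0.00012). With IAA alone it was at 1.02 to 2.35 CPM in the 9 libraries, and the IAA effect too was called higher at 15 days. That difference was 2.31 ± 0.46 (SE; edgeR adjusted p = 0.00062). What BAP added to IAA was not called different between the days (0.99 ± 0.47, SE; edgeR adjusted p = 0.18). In Mock the difference between 15 and 5 days was -1.48 ± 0.29 (SE; edgeR adjusted p = 0.0059).

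For what BAP added to IAA, the members' calls over time were near the share of all gene models. The log2 difference between BAP+IAA and same-day IAA was called higher at 15 than at 5 days at 6 members (6.32%, against 5.14% of all tested) and lower at 7 (7.12% of all tested), with a median of -0.16 over all 95. By day, the median of this difference was 1.08 at 5 days, 1.32 at 10 days and 0.96 at 15 days. In the 403 gene models that stayed low the same median was 0.44, 0.47 and -0.02, and the difference was called higher at 1 and lower at 75. The counts of 6 and 7 were 5 and 2 without replicate 3 of IAA at 5 days, 4 and 4 without its replicate 2, 5 and 3 without replicate 2 of IAA at 15 days, and 3 and 3 without replicate 3 of BAP+IAA at 15 days.

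MA_99523g0010 led the higher calls with 1.07 ± 0.25 (SE; edgeR adjusted p = 0.0048). It was at 11.5, 10.1 and 8 CPM with BAP+IAA at 5 days, 11.8, 10.5 and 12 CPM at 10 days and 7.12, 7.32 and 6.21 CPM at 15 days. With IAA it was at 5.38, 4.94 and 5.19 CPM, 2.53, 2.58 and 2.13 CPM, and 1.44, 1.88 and 1.75 CPM on the same days. Both levels were lowest at 15 days, the IAA level by the larger factor. MA_10436196g0010 led the lower calls with -1.29 ± 0.27 (SE; edgeR adjusted p = 0.0013). It was at 12.8, 10.8 and 11 CPM with BAP+IAA at 5 days, 17.5, 16.4 and 15.7 CPM at 10 days and 13, 10.7 and 15.3 CPM at 15 days. With IAA it was at 4.87, 3.77 and 2.81 CPM, 5.93, 6.31 and 7.5 CPM, and 8.28, 12.8 and 10.2 CPM on the same days. The combination and IAA groups were apart at 5 and 10 days and overlapped at 15 days.

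Few members were called for time in Mock or for a change of the BAP effect. The shares called in either direction were 5.3% for Mock (1.7% of all tested) and 3.2% for the BAP effect (1.8% of all tested). In Mock, 5 members were called lower at 15 than at 5 days (0.617% of all tested) and 0 higher (1.07% of all tested), with differences of -1.76 to -0.99 (edgeR). At an unadjusted p below 0.05 the counts were 17 lower and 2 higher, and DESeq2 called 6 and 1. Only 3 of them were called once replicate 1 of Mock at 5 days was left out, and 2 once replicate 2 of Mock at 15 days was left out. MA_99523g0010 led them, at 8.19, 7.38 and 6.28 CPM at 15 days against 14.7, 15.9 and 12.9 CPM at 5 days (log2 difference -0.99 ± 0.17, SE; edgeR adjusted p = 0.0011). The BAP effect was called higher at 15 than at 5 days at 3 members (0.981% of all tested) and lower at 0 (0.834% of all tested), with MA_509g0010 first and differences of 1.70 to 3.19 (edgeR). At an unadjusted p below 0.05 these were 6 and 6, and DESeq2 called 3 and 2. From 5 to 15 days the median level moved by -0.30 (log2) with BAP and was lower at 63 of 95 members.

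**Figure D5:**
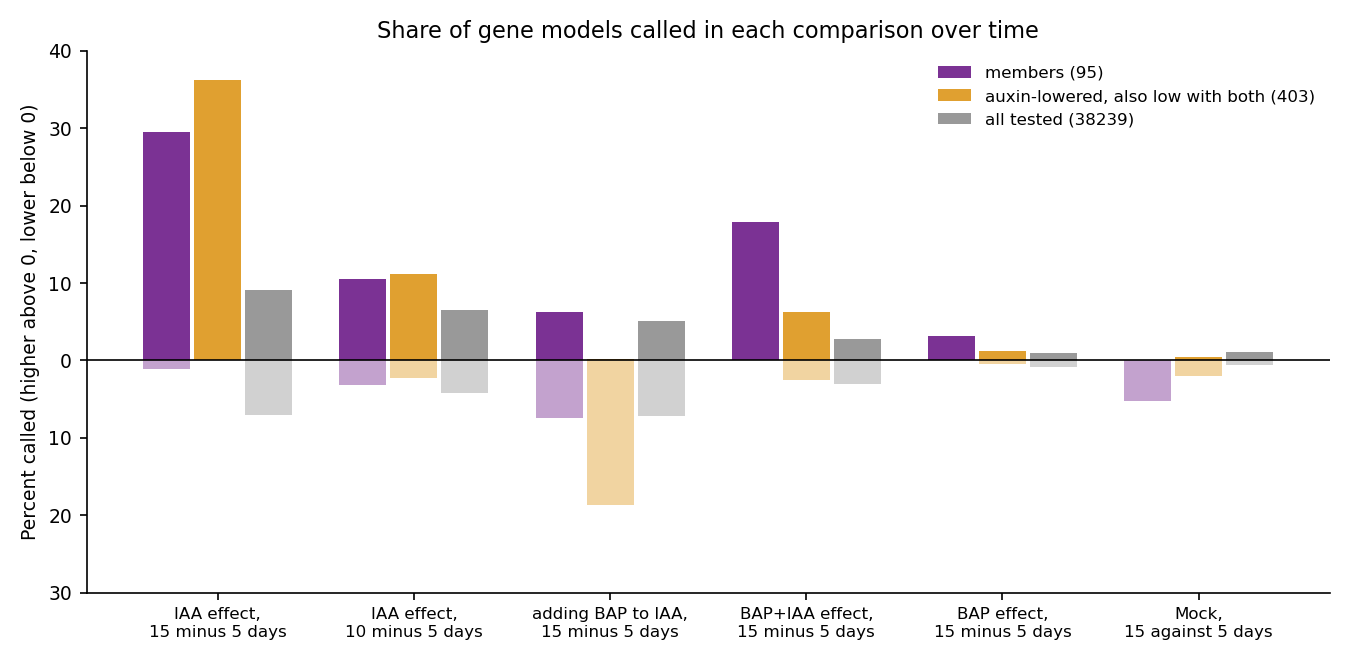
Percent of gene models called higher (above 0) or lower (below 0, paler) in each comparison over time, for the 95 members, the 403 auxin-lowered gene models that stayed low with both hormones, and all 38239 tested. The IAA effect is called higher at 15 days in 28 of the members and 146 of the 403, and adding BAP to IAA is called lower in 7 of the members and 75 of the 403.

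The identifiers give a little more. The part of a Norway spruce identifier before the letter g names a genomic scaffold, so models that share it lie on the same assembled piece. Another gene model of the table shares that part with 24 of the 95 members (25.3%, against 18.3% of all gene models that reached 1 CPM). Among the members themselves it is shared within 2 pairs. In the first pair the mean levels were 43.2 and 7.15 CPM with BAP+IAA, 17.6 and 2.84 CPM with IAA, 115 and 17.9 CPM with BAP, and 81.5 and 12.3 CPM in Mock. In the second they were 4.43 and 1.47 CPM with BAP+IAA, 1.63 and 0.602 CPM with IAA, 3.77 and 1.27 CPM with BAP, and 6.27 and 2.66 CPM in Mock. In each pair both models had the same order of treatments. Neighbouring models may share reads in the counting, so the pairs may not be independent members, which was not tested.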

How the data were processed

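The authors deposited whole-number counts of reads for each gene model, and Trimmomatic, STAR and HTSeq are named, without versions, per the submitters' processing notes. Neither the build nor the annotation nor the strandedness of counting is known from these sources, so overlapping, antisense or near-identical gene models may share or lose reads. The members and lists were chosen with earlier results of these data known.

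CPM was computed from column sums. The model used edgeR 4.0.16 under R 4.3.3. Its filterByExpr function (12 groups) kept 38239 gene models, TMM factors ran from 0.944 to 1.07, and robust quasi-likelihood fits of 12 group means to 36 libraries had 24 residual degrees of freedom. Contrasts were tested with quasi-likelihood F-tests and Benjamini-Hochberg adjustment over all 38239. SE is the log2 change over the root of F. The code was tested on simulated data. No libraries of a group were close enough to be 1 library deposited again (chi-square over degrees of freedom 6.74 to 15.9 between them).

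Named members were, for IAA against Mock, those with the lowest change by the rule's measure and the highest Mock level. For BAP+IAA against IAA it was the largest rise by that measure among the rest at 5 CPM or more in Mock. For each time contrast they were those with the smallest adjusted p in each direction. Alternatives were RLE factors, total counts, no filter, DESeq2 1.42.0, a replicate block, leaving out each library, and other settings of the choice of members.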

Additional observations from a re-analysis of the deposited data

Results flagged for a closer look

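Effects that differed between collection days by a test of the difference itself (edgeR) are listed here with their values. The IAA effect differed between 15 and 5 days at 29 members (30.5%, against 16.1% of all tested gene models), led by MA_75919g0010 (log2 difference 2.57) and MA_18091g0010 (-2.57). Between 10 and 5 days it differed at 13 members, led by MA_75919g0010 (1.81) and MA_28597g0010 (-1.28). These were 13.7%, against 10.7% of all tested and 13.4% of the 403 that stayed low, so near the background. The count of 13 was 5 to 8 without any 1 of 5 libraries: replicate 2 or 3 of IAA at 5 days, replicate 1 or 3 of Mock at 5 days, or replicate 3 of Mock at 10 days. What BAP added to IAA differed between 15 and 5 days at 13 members (13.7%, against 12.3% of all tested, so near the background), led by MA_99523g0010 (1.07) and MA_10436196g0010 (-1.29). The BAP effect differed at 3 members (3.2%, against 1.8% of all tested) and the BAP+IAA effect at 17 (17.9%, against 5.7% of all tested), both led by MA_509g0010 (3.17 and 3.30), whose Mock level also fell with time.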

How the results depend on the processing

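The choice of members was sensitive to single settings. The rule gave 95 gene models, 86 with TMM-scaled CPM (85 shared), 137 and 65 with 0.1 and 1 CPM added (83 and 59 shared), and 122 with medians in place of means (66 shared). Leaving out 1 library, or 1 replicate number throughout, gave 83 to 113, and 49 members were kept in all 36 single leave-outs. Without replicate 1 throughout there were 83 (63 shared), without replicate 2 there were 113 (77 shared) and without replicate 3 there were 111 (81 shared).

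Of 34 counts under other settings, 31 stayed within 1.5 times. For the IAA effect at 10 against 5 days, 7 members were called with no filter and 20 with DESeq2, against 13, and for the BAP effect DESeq2 called 5, against 3. The cause was not tested. Leaving out a library gave 19 to 30 calls for the IAA effect at 15 against 5 days, 5 to 15 at 10 against 5 days, 6 to 13 for adding BAP to IAA, 3 to 4 for BAP, 13 to 18 for BAP+IAA and 2 to 6 for Mock. The 9 time differences of single members named by the rule kept their sign and their call in every setting run. The changes of MA_10435693g0020, MA_10020g0010 and MA_895626g0010, given without a call, kept their sign. MA_7997902g0010 was not followed through these settings.

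The labels number the replicates but state no pairing by number, and the main fit treated the libraries as unpaired. Deviations of same-numbered libraries correlated at -0.0867 to 0.28 (median 0.0544, 59 of 198 pairs above 0.1), and those of other pairs at -0.218 to 0.184 (median -0.0323, 18 of 396 above 0.1). With 23 of 36 libraries correlating best with their own number, the data hint at some sharing by number, which the main SE and p-values leave out. With a replicate block 30, 16, 12, 4, 20 and 6 members were called in these 6 comparisons, against 29, 13, 13, 3, 17 and 5.

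Depth limits the members of low level, since 3 reads correspond to 0.135 to 0.239 CPM and 7 members had a library without a read.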
